A study of Mus musculus with 23 samples.

Results

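The 10 genes described here encode the core of the MHC class I antigen presentation pathway in mouse: the class I heavy chains H2-K1 and H2-D1, the light chain B2m, the peptide transporter subunits Tap1 and Tap2, the loading factor Tapbp, the immunoproteasome subunits Psmb8, Psmb9 and Psmb10, and the regulator Nlrc5. They were chosen by name from the pathway, and their probes were found by matching the RefSeq transcript of each probe to the gene. They are 10 of the 20145 genes that could be named on the array and have 12 of its 55681 non-control probes, with 2 probes each for H2-K1 and Nlrc5 and 1 for each other gene.

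TM4 cells, an immortalized line derived from mouse Sertoli cells, were exposed for 48 hr to 1 of 5 plasticizers at 100 μM in 1% DMSO, or to the vehicle alone. The compounds were MEHP (mono(2-ethylhexyl) phthalate, a metabolite of the phthalate DEHP), the commercial plasticizer DINCH (diisononyl cyclohexane dicarboxylate), DOM (dioctyl maleate), BDB (butanediol dibenzoate) and DOS (dioctyl succinate). Each group had 4 arrays, except DOS with 3 (replicates 1, 3 and 4), and the 23 one-colour arrays lay on 3 slides. All groups are 1 cell line without other cells of the testis. The methods of the study call the replicates biological, while the labels do not say how the cultures were separated, and the p-values measure the spread between these samples.

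The 75th percentile of the signal ranged from 204.6 to 350.7 over the arrays, and 43.4% to 52.2% of spots were well above background. DMSO, DOM and DOS lay in rows 2 and 4 of the slides while MEHP, DINCH and BDB lay in rows 1 and 3, so row and treatment cannot be told apart in DINCH, MEHP or BDB against DMSO and in DOM against DINCH. Of 14 Sertoli cell markers, 6 were well above background on all 23 arrays (among them Gata4, Kitl and Inha), while Wt1, Fshr and Cldn11 were on none and Amh on 1. The summed level of these 14 markers was 3.83 to 4.81 in DMSO and 5.44 to 6.11 in DOM on the log2 scale used below, a sum carried by the brightest marker, Inhbb (4.11 in DMSO and 5.72 in DOM). Of the 7 tested Sertoli markers, 4 lay above 0 with DOM, 2 were called higher (Inhbb and Inha) and 1 lower (Sox9), while DINCH had 3 above 0 and 2 called higher (Dhh at 1.09 and Inha at 0.64). Of all tested genes, 9.89% were called higher and 10.6% lower with DOM, and 4.25% were called higher with DINCH. Of the 2 tested markers of peritubular myoid cells, Cnn1 was called lower with DOM (-1.21) and Acta2 lay above 0. The summed level of the 4 myoid markers was 4.92 to 5.27 in DMSO and 5.19 to 5.61 in DOM. Of 8 leukocyte markers on the array, 5 (among them Ptprc, Laptm5 and Tyrobp) were not well above background on any array. The other 3, Csf1r, Itgam and Cd3e, were well above background on all 23. The summed level of the 8 was 3.86 to 4.26 in DMSO, 3.72 to 4.22 in DINCH and 3.93 to 4.48 in DOM. The part of these marker differences in the results was not tested, and in RNA from whole cultures fewer cells with a transcript and less of it per cell cannot be told apart.

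MHC class I molecules display peptides from the cell's own proteins at its surface, where cytotoxic T cells read them. Proteasomes cut the peptides, TAP carries them into the endoplasmic reticulum, tapasin holds TAP next to empty class I molecules, and a loaded heavy chain leaves with its light chain for the surface. Interferons raise the genes of the pathway together and exchange the standard catalytic subunits of the proteasome for those of the immunoproteasome, and the testis is known as an immune privileged site in which Sertoli cells take part.

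Because several of these genes share control elements, their upstream sequences are shown first. RefSeq promoter windows (mouse, GRCm38.p6) were found for 8 of the 10 genes, all but Tap2 and Nlrc5, and each covers the 250 bases before the start of the transcript. The windows were searched on both strands for the interferon-stimulated response element (ISRE, searched as GAAA, any 2 bases and GAAA), a kappaB site (GGG, any 2 bases and TTCCC) and the CCAAT box (CCAAT), which do not overlap one another in the windows printed. In the lines that follow the capitals mark the matches. H2-K1 (chr17:34000348-34000597, minus strand) and H2-D1 (chr17:35262844-35263093, plus strand) are shown because their transcripts fell together under DOM, B2m (chr2:122147437-122147686, plus strand) as the chain that pairs with both, and the 225 bases between the opposed starts of Psmb9 and Tap1 (chr17:34187331-34187555, plus strand, Tap1 starting at the right end) because the pair share them.
H2-K1: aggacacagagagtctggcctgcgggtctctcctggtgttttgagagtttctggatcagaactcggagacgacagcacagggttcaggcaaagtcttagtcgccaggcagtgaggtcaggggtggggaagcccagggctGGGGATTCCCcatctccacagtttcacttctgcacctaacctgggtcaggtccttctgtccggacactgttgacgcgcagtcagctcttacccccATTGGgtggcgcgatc
H2-D1: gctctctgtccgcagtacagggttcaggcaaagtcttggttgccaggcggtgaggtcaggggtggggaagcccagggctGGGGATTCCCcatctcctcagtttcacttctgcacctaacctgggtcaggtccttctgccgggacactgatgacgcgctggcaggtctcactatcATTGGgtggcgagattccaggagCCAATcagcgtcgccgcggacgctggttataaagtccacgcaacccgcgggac
B2m: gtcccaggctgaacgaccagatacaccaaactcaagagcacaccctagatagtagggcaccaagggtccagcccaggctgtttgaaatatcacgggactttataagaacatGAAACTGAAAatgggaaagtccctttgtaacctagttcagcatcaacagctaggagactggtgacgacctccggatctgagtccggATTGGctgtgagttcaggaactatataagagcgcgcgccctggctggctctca
Psmb9 to Tap1: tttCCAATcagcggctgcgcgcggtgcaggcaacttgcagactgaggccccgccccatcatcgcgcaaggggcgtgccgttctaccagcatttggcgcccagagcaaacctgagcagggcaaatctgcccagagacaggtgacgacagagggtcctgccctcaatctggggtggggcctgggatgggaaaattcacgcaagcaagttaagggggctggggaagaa

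The kappaB letters were found in 2 of the 8 windows, H2-K1 and H2-D1, and in 1.53% of all 32851 windows of that length. Both had the same match, GGGGATTCCC, which begins 111 bases before the start in H2-K1 and 171 in H2-D1, and the longest run of bases shared by these windows was 47. The ISRE letters were found in 1 of the 8, B2m, as GAAACTGAAA, and in 2.98% of all windows. The CCAAT box was found in 6 of the 8 windows and in 33.8% of all, and the windows of Psmb8 and Psmb10 held none of the 3 motifs. The windows of Tap1 and Psmb9 overlap, and their CCAAT matches are the same bases read on opposite strands. A match is a run of letters and not evidence of binding. Other forms of these elements were not searched for, so a window without a match may still hold one.

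Levels are given as the log2 of the array signal with the 75th percentile of the same array set at 0, and differences as the first group minus the second on that scale. Levels of different genes cannot be set against each other, because each comes from its own probe. A gene is said to rise or fall where its brightest probe passed an adjusted p below 0.05 in limma, and is called where any of its probes passed it and exceeded 1.5-fold, the value given being that of the brightest probe. All of the 10 genes except Nlrc5 were tested.

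Of the 9 tested genes, 2 lay above DMSO with MEHP, 6 with DINCH, 5 with DOM, 1 with BDB and 7 with DOS. Following DINCH treatment Psmb8 rose, and it was the only 1 of the 9 tested genes called, against 8.24% of all tested genes called in that comparison. Following DOM treatment Tap2 rose while H2-K1, H2-D1 and Psmb10 fell, each of the last 3 by no more than 1.5-fold, so that 1 of 9 was called against 20.5% of all tested genes and 4 of 9 passed the adjusted p alone against 35.5%. None of the 9 was called with MEHP, where 1.67% of all tested genes were, and none with BDB or DOS, where 0% were. The adjusted p alone was passed by 1 of 9 with DINCH against 13.1% of all tested genes, and by none with MEHP (2.65%), BDB (0%) or DOS (0%). At an unadjusted p below 0.05 in limma the count was 3 of 9 with DINCH against 30.8% and 7 of 9 with DOM against 47.3%. It was 1 of 9 with each of MEHP, BDB and DOS, against 18.8%, 16.3% and 6.33%. Groups that did not overlap with DMSO were seen for 2 of 9 genes with DINCH (24% of all tested genes), 5 with DOM (39.4%), 1 with MEHP (14.4%), 1 with BDB (12%) and 2 with DOS (8.12%). The median difference of the 9 genes from DMSO was -0.05 with MEHP, 0.17 with DINCH, 0.13 with DOM, -0.18 with BDB and 0.11 with DOS, beside medians of all tested genes between -0.03 and 0.00. These 5 comparisons share the same 4 DMSO arrays.

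**Figure D1:**
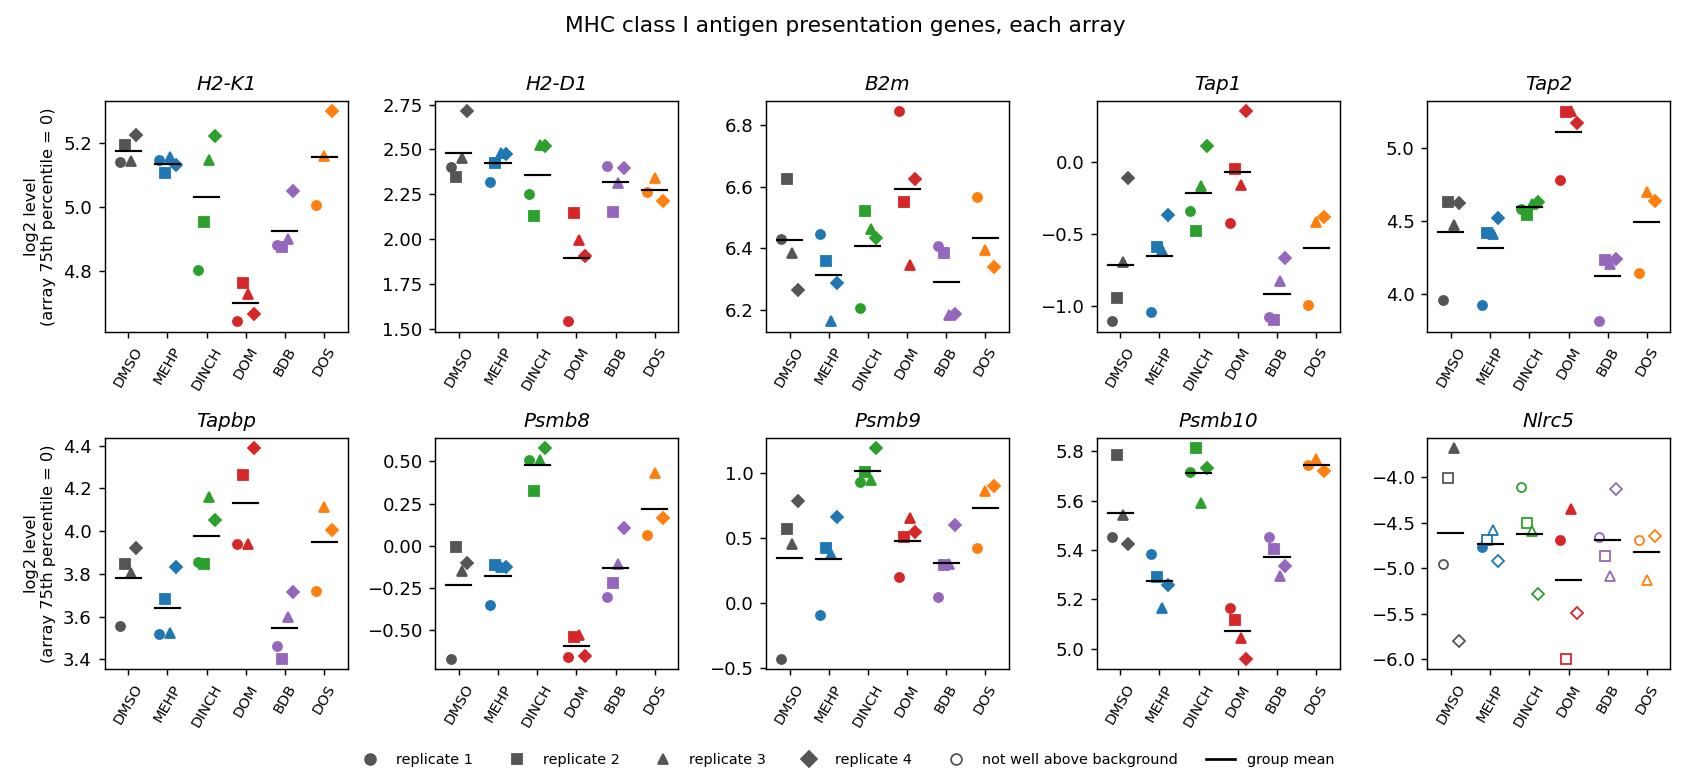
Log2 level of the brightest probe of each gene on each of the 23 arrays (vertical axis, array 75th percentile = 0) by treatment group, with the replicate number as the marker shape, open markers where the probe was not well above background and a bar at the group mean. The 4 DOM arrays lie below all other arrays for H2-K1, below all DMSO arrays for H2-D1 and above all others for Tap2, the DINCH arrays lie above all DMSO arrays for Psmb8 and Psmb9, and Nlrc5 is mostly open markers.

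H2-K1 encodes the K heavy chain of the class I molecule. Its level was 5.14, 5.20, 5.15 and 5.23 on the DMSO arrays and 4.64, 4.76, 4.73 and 4.67 on the DOM arrays. The DOM arrays were all below the DMSO arrays, and their highest value was also below the lowest of every other group. H2-K1 fell by 0.48 under DOM (SE 0.083, 1.39-fold, adjusted p = 0.00298), and within the slides the difference was -0.44, -0.44 and -0.56. The other H2-K1 probe, a dimmer one, gave -0.31 (SE 0.126, adjusted p = 0.0891), with 3 of the 4 DOM arrays below all DMSO arrays.

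With the other compounds the mean of H2-K1 lay nearer to the vehicle. With BDB the arrays read 4.88, 4.87, 4.90 and 5.05, all below the DMSO arrays, and the difference of -0.25 (SE 0.081) did not pass the test (adjusted p = 0.198). DINCH arrays ran from 4.80 to 5.22 and overlapped the DMSO range, with a difference of -0.15 (95% interval -0.40 to 0.10). MEHP gave -0.04 (-0.19 to 0.11) and DOS -0.02 (-0.26 to 0.22).

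H2-D1, the D heavy chain, was also lowest with DOM. It read 2.40, 2.35, 2.45 and 2.71 with DMSO, and 1.54, 2.15, 1.99 and 1.91 with DOM. DOM and DMSO did not overlap, and DOM replicate 1 was the lowest of the 23 arrays. H2-D1 fell by 0.58 under DOM (SE 0.146, adjusted p = 0.0154), just short of 1.5-fold, and by 0.56, 0.41 and 0.81 within the slides. The remaining groups gave differences from -0.05 with MEHP to -0.21 with DOS, where the 3 arrays (2.26, 2.34 and 2.21) lay below the DMSO arrays but the test was not passed (SE 0.117, adjusted p = 0.799).

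The class I heavy chains are close paralogs, and how far the probes also bind transcripts of their relatives was not tested. B2m, the invariant light chain that all class I heavy chains need, gave no passing difference with any compound. It ran from 6.26 to 6.62 on the DMSO arrays and from 6.35 to 6.85 on the DOM arrays, which overlapped, with a difference of 0.17 (95% interval -0.13 to 0.46). In the other groups the difference was between -0.13 with BDB and 0.01 with DOS. Thus under DOM the values of the heavy chains lay below the vehicle and that of the light chain did not.

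Tap1 and Tap2 encode the subunits of the TAP transporter, and Tapbp encodes tapasin, which bridges TAP and the class I molecule. Tap2 read 3.96, 4.63, 4.47 and 4.63 with DMSO and 4.78, 5.25, 5.26 and 5.17 with DOM. Each DOM array lay above every array of the other groups. Tap2 rose by 0.69 under DOM (SE 0.176, 1.61-fold, adjusted p = 0.0166), with differences of 1.06, 0.70 and 0.54 within the slides. DMSO replicate 1 was the lowest of its group, and without it the difference was 0.54, under 1.5-fold (adjusted p = 0.0271), while without DOM replicate 2 it was 0.65 (adjusted p = 0.0511).

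Tap1 had the widest spread among the vehicle arrays of these 3 genes, with -1.11, -0.94, -0.69 and -0.11, against -0.42, -0.05, -0.16 and 0.35 with DOM. The groups overlapped, since the highest DMSO array stood above 2 of the DOM arrays, and the difference of 0.64 (SE 0.232) did not pass (adjusted p = 0.0637). With the slide as a block Tap1 gave 0.68 (adjusted p = 0.00779) and with the replicate block 0.64 (adjusted p = 0.00566), both calls. Tapbp ran from 3.55 to 3.92 with DMSO and from 3.94 to 4.39 with DOM, with no overlap and a difference of 0.35 (SE 0.137, adjusted p = 0.0819). All 3 genes of this step therefore had positive differences with DOM, and 1 of them, Tap2, passed the test.

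With DINCH, Tap1 arrays read -0.34, -0.48, -0.17 and 0.11, a difference of 0.49 from DMSO (95% interval 0.01 to 0.98, adjusted p = 0.186). Tap2 differed by 0.17 (-0.17 to 0.51) and Tapbp by 0.20 (-0.07 to 0.46). BDB gave values below DMSO for all 3, from -0.20 for Tap1 to -0.30 for Tap2, and none passed. MEHP and DOS differences for the 3 genes lay between -0.14 and 0.16, and none passed.

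**Figure D2:**
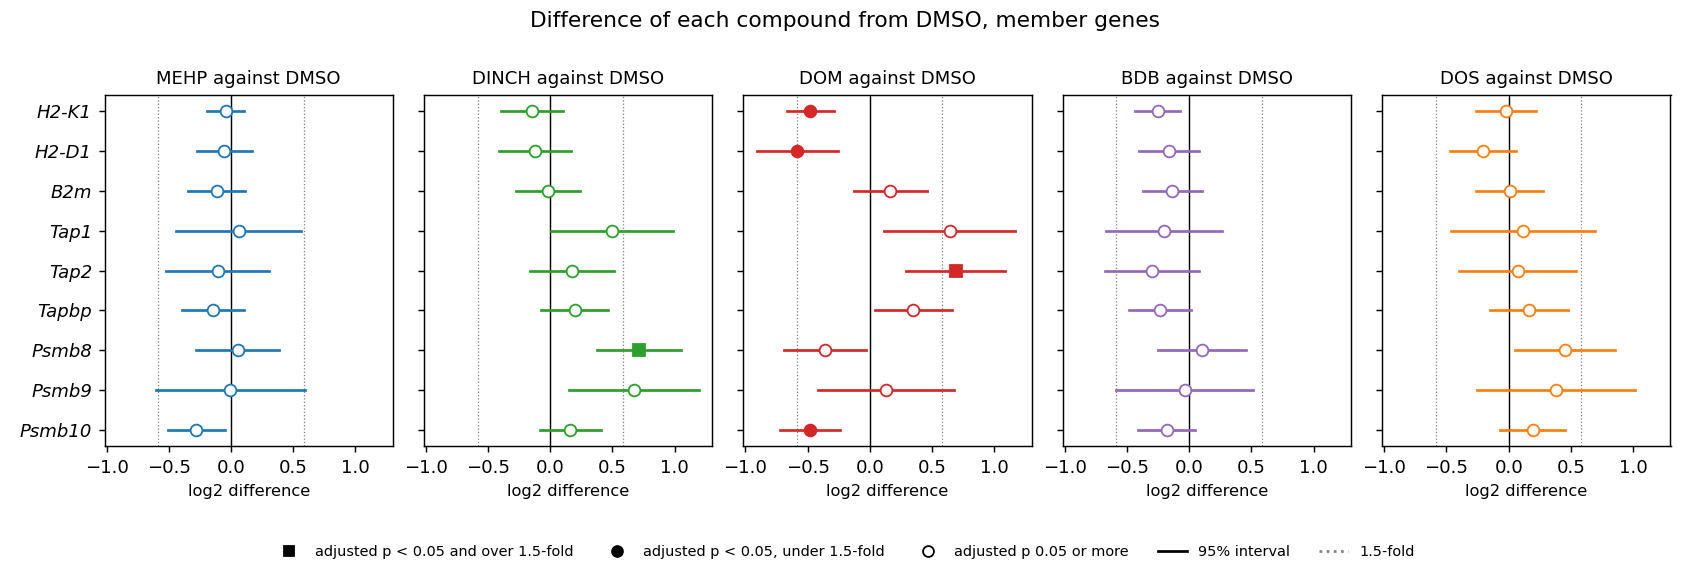
Log2 difference of each compound from DMSO (horizontal axis) for the 9 tested genes, with the 95% interval from limma as a line and dotted lines at 1.5-fold. Filled markers passed an adjusted p below 0.05 and squares also exceeded 1.5-fold: Psmb8 (0.71) with DINCH and Tap2 (0.69) with DOM are the squares, and H2-K1, H2-D1 and Psmb10 are filled circles below 0 with DOM.

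Psmb8, Psmb9 and Psmb10 encode the catalytic subunits (LMP7, LMP2 and MECL-1) that replace the standard ones in the immunoproteasome. Psmb8 read -0.67, -0.01, -0.15 and -0.11 on the DMSO arrays and 0.51, 0.33, 0.51 and 0.58 on the DINCH arrays. Every DINCH array was above every DMSO array, and DMSO replicate 1 was well below the other 3. Psmb8 rose by 0.71 under DINCH (SE 0.150, 1.64-fold, adjusted p = 0.0202), with differences of 1.18, 0.40 and 0.65 within the slides. Without DMSO replicate 1 the difference was 0.57 (adjusted p = 0.0236), under 1.5-fold, and without DINCH replicate 1 or 4 or DMSO replicate 3 the adjusted p was 0.0504, 0.0550 and 0.0542.

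Under DOM the same gene read -0.66, -0.54, -0.53 and -0.66, below 3 of the 4 DMSO arrays and close to the fourth. The difference of -0.36 (SE 0.146) did not pass (adjusted p = 0.0901). DOS arrays read 0.06, 0.43 and 0.16, all above the DMSO arrays, with a difference of 0.45 (SE 0.177) that did not pass either (adjusted p = 0.653). For MEHP and BDB the differences were 0.05 and 0.10.

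Psmb9, transcribed away from the same short stretch as Tap1, read -0.43, 0.57, 0.45 and 0.79 with DMSO and 0.93, 1.01, 0.95 and 1.19 with DINCH. These groups did not overlap, and the difference of 0.67 (SE 0.233, 1.59-fold) did not pass (adjusted p = 0.102). DMSO replicate 1 again stood below the other vehicle arrays, and without it the difference was 0.41, which did not pass either. Under DOM the arrays ran from 0.20 to 0.65, inside the DMSO range, with a difference of 0.13 (95% interval -0.42 to 0.68).

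Psmb10 went down rather than up with DOM. It read 5.45, 5.79, 5.54 and 5.42 with DMSO and 5.16, 5.11, 5.04 and 4.96 with DOM, with no overlap. Psmb10 fell by 0.48 (SE 0.109, 1.40-fold, adjusted p = 0.00980), and by 0.31, 0.62 and 0.46 within the slides. MEHP arrays (5.38, 5.29, 5.16 and 5.26) were also below all DMSO arrays, with a difference of -0.28 (SE 0.10) that did not pass (adjusted p = 0.211). DINCH and DOS gave 0.16 and 0.19, with the 3 DOS arrays at 5.74, 5.77 and 5.72.

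Nlrc5, the transactivator that binds class I promoters together with the RFX proteins, was close to background. Its brighter probe was well above background on no more than 2 arrays of any group and its levels ran from -6.00 to -3.68, so it was not tested. The level of Nlrc5 in these cells was therefore below what the array measured dependably.

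Replicate 1 was the lowest array of its group in all 6 groups for Psmb9, in 5 for Tap2 and Psmb8, in 4 for Tap1, Tapbp and H2-K1, in 2 for H2-D1, in 1 for B2m and in none for Psmb10 and Nlrc5. Over the 23 arrays the highest correlations between members were 0.87 for Tap1 with Tapbp, 0.84 for Tap2 with Tapbp, 0.83 for Tap1 with Tap2, 0.78 for H2-D1 with H2-K1 and 0.77 for Psmb10 with Psmb8. After the group means were removed, the highest was 0.91 for Psmb9 with Tap2 and the next 0.85 for Psmb8 with Psmb9. The arrays share slides and a common scaling, so these are descriptions.

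**Figure D3:**
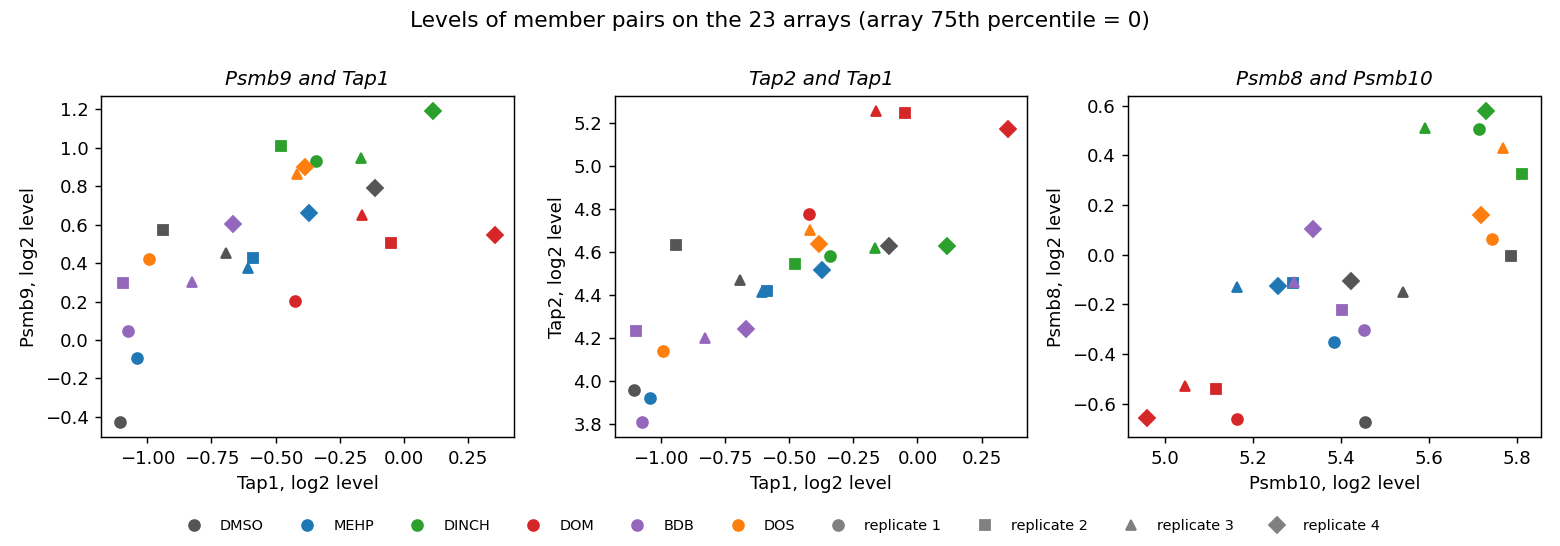
Log2 levels (array 75th percentile = 0) of Psmb9 and Tap2 against Tap1 and of Psmb8 against Psmb10, 1 point for each of the 23 arrays, coloured by group with the replicate as marker shape. For Psmb9 and Tap1, which share a start region, the DOM arrays lie below all DINCH arrays in Psmb9 and overlap them in Tap1. Whether the pair differ in their response was not tested. The DOM arrays lie at the low end of Psmb8 and Psmb10.

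The order of the groups differed between the genes, also within the immunoproteasome subunits. DOM was the lowest group for H2-K1, H2-D1, Psmb8 and Psmb10 and the highest for B2m, Tap1, Tap2 and Tapbp. DINCH was the highest for Psmb8 and Psmb9, and BDB the lowest for B2m, Tap1, Tap2, Tapbp and Psmb9. Between neighbours in these orders the ranges overlapped except for DOM below BDB in H2-K1, DOM below DOS in H2-D1, DOM above DINCH in Tap2 and DINCH above DOS in Psmb9.

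DOM was compared directly with DINCH, the commercial plasticizer. In this comparison 2 of the 9 genes were called, both lower with DOM, against 23.3% of all tested genes called in either direction, and 5 passed the adjusted p against 36.1%. At an unadjusted p below 0.05 the count was 6 against 47.1%, and 5 did not overlap against 38.7%. Psmb8 was lower by 1.08 with DOM (a difference of -1.08, SE 0.102, 2.11-fold, adjusted p = 0.000103), with -1.11, -0.86 and -1.20 within the slides. Psmb10 differed by -0.64 (SE 0.101, adjusted p = 0.00131) and Psmb9 by -0.54 (SE 0.125, adjusted p = 0.00922). All 3 immunoproteasome subunits were thus lower with DOM than with DINCH on every array, without overlap.

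At the other steps the direction was mixed. Tap2 was higher with DOM by 0.52 (SE 0.126, adjusted p = 0.0118), while Tap1 and Tapbp differed by 0.15 each (95% intervals -0.26 to 0.56 and -0.16 to 0.46). H2-D1 was lower (-0.46, SE 0.154, adjusted p = 0.0454), a result that passed in 9 of 20 alternative settings, and H2-K1 gave -0.33 on its brighter probe (adjusted p = 0.0543) and -0.32 on the other (adjusted p = 0.0491).

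DOM and DOS are dioctyl esters of acids that differ in the central bond, a double bond in maleate and a single one in succinate. They were compared at the same concentration and time and lay in the same rows of the slides. Of the 9 genes 3 were called, against 15.2% of all tested genes, and 4 passed the adjusted p against 21.7%. At an unadjusted p below 0.05 the count was 6 against 38.4%, and 5 did not overlap against 38.5%. Psmb8 differed by -0.82 (SE 0.120, 1.76-fold, adjusted p = 0.00415), Psmb10 by -0.67 (SE 0.101, 1.59-fold, adjusted p = 0.00445) and H2-K1 by -0.46 (SE 0.110, adjusted p = 0.0238), all lower with DOM, and H2-K1 passed in 11 of 19 alternative settings. Tap2 was higher with DOM by 0.62 (SE 0.179, 1.54-fold, adjusted p = 0.0436). No DOM array overlapped a DOS array for these 4 genes, and slide 2 held no DOS array, so only slides 1 and 3 gave differences within a slide (-0.67 and -0.95 for Psmb8, 0.87 and 0.50 for Tap2).

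For the other 5 genes a difference between DOM and DOS was not shown. H2-D1 gave -0.38 (95% interval -0.72 to -0.03, adjusted p = 0.114), Tap1 0.53 (0.04 to 1.02, adjusted p = 0.117), Psmb9 -0.25 (-0.62 to 0.11), Tapbp 0.18 (-0.18 to 0.54) and B2m 0.16 (-0.16 to 0.47). The intervals for H2-D1, Tap1 and Psmb9 reach past 1.5-fold, so a difference of that size is compatible with the data. The call of Tap2 was lost on leaving out any array but DOM replicate 1, with differences from 0.44 (without DOS replicate 1, adjusted p = 0.133) to 0.72 (without DOS replicate 3, adjusted p = 0.0550).

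**Figure D4:**
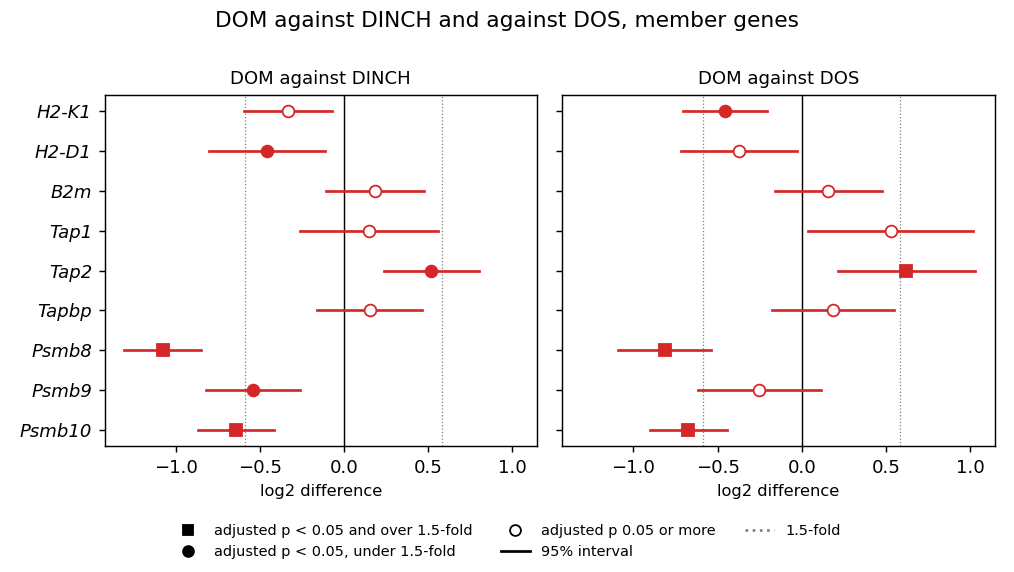
Log2 difference of DOM from DINCH (left) and from DOS (right) for the 9 tested genes, with 95% intervals as lines, dotted lines at 1.5-fold, filled markers at an adjusted p below 0.05 and squares where the difference also exceeded 1.5-fold. Psmb8 (-1.08 and -0.82) and Psmb10 (-0.64 and -0.67) are squares below 0 on both sides, while Tap2 is above 0 on both (0.52 and 0.62).

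The standard catalytic subunits that the immunoproteasome replaces, Psmb5, Psmb6 and Psmb7, were not called in any comparison. With DOM their differences from DMSO were -0.38, -0.20 and -0.22, of which Psmb5 fell (SE 0.12, adjusted p = 0.0383). All 3 also lay lower with DOM than with DINCH (median -0.34) and than with DOS (median -0.28). Among 11 genes of peptide supply, trimming and loading, none was called with DINCH (8.24% of all tested genes were) and 1 with DOM (20.5%). This was Erap1, the aminopeptidase that trims peptides in the endoplasmic reticulum. Erap1 passed the filter only through the DMSO arrays and was well above background on no DOM array. It was at least 1.75-fold lower with DOM, taking the dimmest signals well above background as the limit. Its call in limma (adjusted p = 0.0145) therefore rests on DOM signals that were not well above background. Lap3, a cytosolic aminopeptidase, fell by 0.46 and Tapbpl, the tapasin-related peptide editor, by 0.29 with DOM, both under 1.5-fold. The chaperones Calr and Canx gave -0.07 and 0.22 with DOM and did not pass.

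Other class I chains went in both directions under DOM. Of 14 tested genes 3 were called higher and 2 lower, against 9.89% and 10.6% of all tested genes. The higher ones were Fcgrt (0.92, the neonatal Fc receptor), Cd1d1 (0.91, which presents lipids) and Mr1 (0.68, which presents vitamin metabolites). The lower ones were H2-M3 (-1.01, which presents N-formylated peptides) and H2-T24 (-0.70). H2-K2 and H2-Q7, relatives of the classical heavy chains, fell by 0.49 and 0.48, under 1.5-fold. With DINCH only Mr1 was called (0.66), where 8.24% of all tested genes were. The median of the 14 genes was -0.05 with DOM and 0.12 with DINCH.

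Of 14 tested regulators of class I transcription, 1 was called with DINCH and 2 with DOM, against 8.24% and 20.5% of all tested genes. Stat2, a subunit of the interferon-activated factor ISGF3, rose with both DINCH (0.98, adjusted p = 0.00304) and DOM (0.73, adjusted p = 0.00335). Ezh2, a histone methyltransferase of the Polycomb complex, fell by 0.81 with DOM (adjusted p = 0.00754). Irf1, which activates several of the member genes, gave 0.15 with DINCH and -0.21 with DOM, and neither passed. Rfxank, a subunit of the RFX complex, rose by 0.50 with DINCH and 0.39 with DOM, and Irf9 rose by 0.53 with DINCH, all under 1.5-fold. Of 9 interferon receptor and signalling genes only Ifnar1 was called, higher with DOM (0.72, adjusted p = 0.00322), where 9.89% of all tested genes were called higher.

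Interferon-induced genes outside the pathway were counted beside the members. Of 8 tested genes that respond to interferon gamma, 3 were called higher with DINCH (Cxcl10 0.82, Igtp 0.78 and Gbp3 0.69) against 4.25% of all tested genes, and 2 lower with DOM (Cxcl10 -2.28 and Gbp3 -1.28) against 10.6%. Of 12 tested type I interferon-induced genes, 8 were called higher with DINCH, 1 of them (Ddx58) through a probe other than its brightest, and 7 lower with DOM. With MEHP 2 genes of each list were called lower (0.544% of all tested genes were), while Psmb8 and Psmb9 gave 0.05 and 0.00. Among these calls, Irgm2 (-1.15) was well above background on 2 MEHP arrays and 4 DMSO arrays, so it passed the filter only through DMSO. Of the MHC class II genes, 4 of 9 were tested, and H2-DMa (1.55) and H2-DMb1 (1.02) were called higher with DOM, where 9.89% of all tested genes were. The classical chains H2-Aa, H2-Ab1 and H2-Eb1 were not tested because their signal was too close to background.

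**Figure D5:**
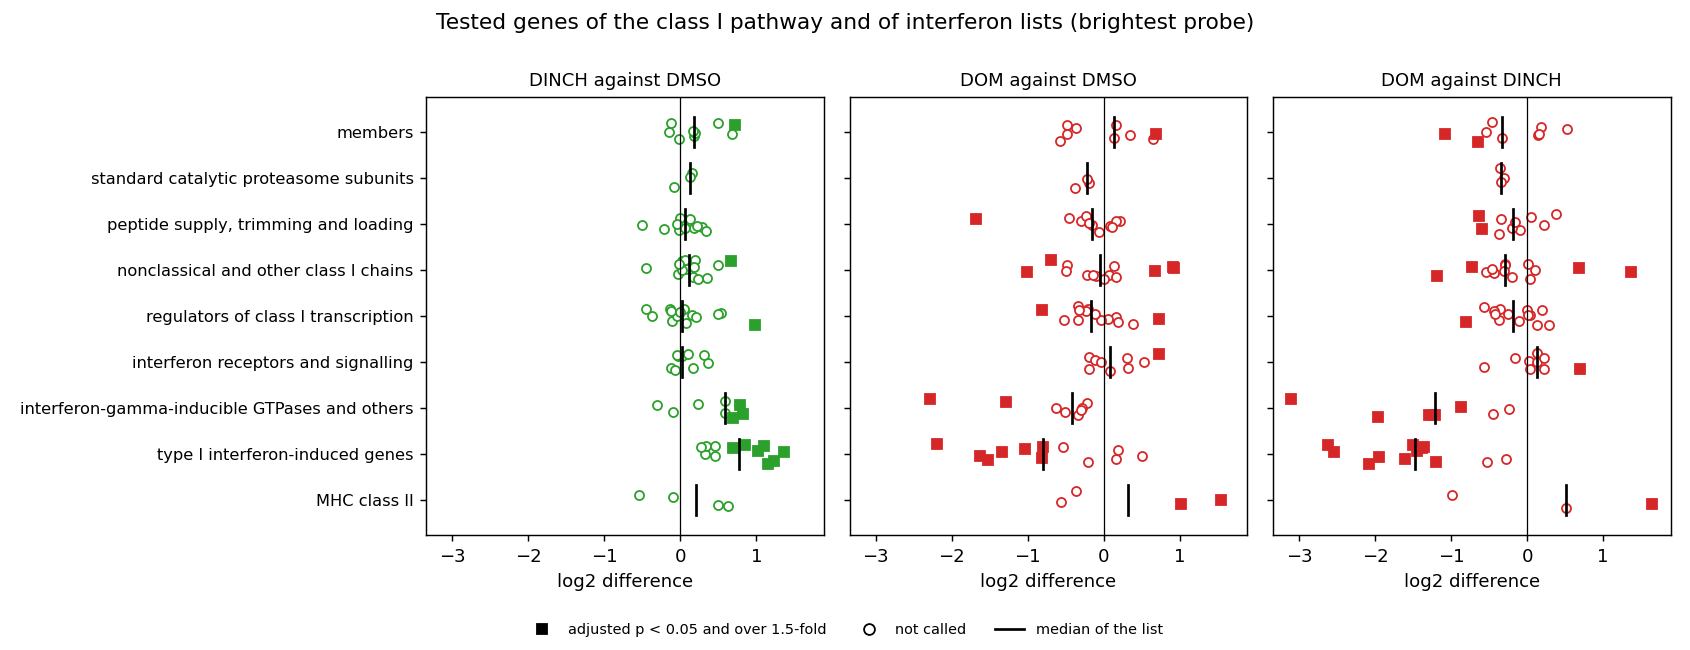
Log2 difference (horizontal axis) of each tested gene, by list, for DINCH against DMSO, DOM against DMSO and DOM against DINCH, with filled squares for genes called by their brightest probe, open circles for the others and a bar at the median of the list. The type I interferon list has its median at 0.77 with DINCH and -0.80 with DOM, while the medians of the 9 members are 0.17 and 0.13.

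The mean profile of the 9 tested members over the 23 arrays, each member first scaled to equal mean and spread, was set against the 11198 other genes that were well above background on every array. The genes most like it were Parp10 (Pearson r = 0.89), Ifi35 (0.89), Tmem176a (0.88), Pdgfrl (0.87) and Sh3glb2 (0.84), which is a description over arrays that share slides and scaling.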

How the data were processed

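RNA from 23 samples was labelled with Cy3 and hybridized to Agilent 8x60K mouse arrays by the authors, and Feature Extraction 11.5.1.1 was used to read the spots. The deposited intensity is linear, background-subtracted and unscaled. A deposited series table holds the authors' log2 values, set to the 75th percentile and centred by probe, and served as an alternative (lowest correlation with its own array 0.998, highest with another 0.835). One DOS replicate was excluded by the authors for high background.

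Here the log2 of the processed intensity (floor 1) was set against the 75th percentile of all non-control spots on its array, outlier spots were dropped and repeated spots averaged. Of 55681 probes, 26582 were named through RefSeq accessions (20145 symbols), without positions, since the array was designed on another build. Testing required a probe to be well above background and not under the 20th percentile on all arrays of at least 1 compared group. limma 3.58.1 (R 4.3.3) was fitted to the groups of each of 7 comparisons, with Benjamini-Hochberg adjustment over all tested probes. The brightest probe gives the value of a gene, and a gene was called when any probe passed an adjusted p below 0.05 and 1.5-fold. Plots used matplotlib 3.10.9 under Python 3.11.15. Arrays have no read depth, and their number limits precision.

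The members and lists (other class I pathway genes, interferon-induced genes, cell type markers) were chosen with earlier results of these data known. All members are named, with all standard catalytic subunits and, of each other list, up to 4 called genes with the largest change in a comparison. Mr1 under DOM and list genes named without a call were chosen after their values were seen.

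Groups share replicate numbers. Deviations of arrays with the same number from the group means correlated above 0.1 in every pair for DINCH (0.17 to 0.49), BDB (0.24 to 0.43) and DOS (0.19 to 0.45) against DMSO. These were taken as paired, from the values and not the labels. The main fits held no block, so the SE, intervals and p-values given above do not use the pairing, which enters only through the replicate block. Alternatives were quantile normalization, normexp correction (offset 50), no filter, detection on 1 array, a slide block, a replicate block, a fit of all groups, outlier spots included, a variance trend, the brightest probe alone, the deposited series values, leaving out each array, and, added after seeing the data, leaving out the replicate 1 arrays. The steps were tested on simulated arrays drawn independently of one another. These held no effect of replicate or slide, so that test does not bear on the pairing.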

Additional observations from a re-analysis of the deposited data

Results flagged for a closer look

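Of 50 sets of 4 arrays (a gene in a group), 3 had an array far from the other 3 by Dixon's test, which chance gives in about 1 of 20. H2-K1 in BDB was higher in replicate 4 (5.05, gap over range 0.856), Tap2 in BDB was lower in replicate 1 (3.81, 0.908) and Psmb8 in MEHP was lower in replicate 1 (-0.35, 0.933).

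The other results are differences between compounds that passed an adjusted p below 0.05 in limma. DOM against DINCH gave -1.08 for Psmb8, -0.64 for Psmb10, -0.54 for Psmb9, -0.46 for H2-D1 and 0.52 for Tap2. DOM against DOS gave -0.82 for Psmb8, -0.67 for Psmb10, -0.46 for H2-K1 and 0.62 for Tap2.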

How the results depend on the processing

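Of 1242 gene values under the alternatives, 1198 kept their side of the threshold, 25 lost a call and 19 gained one. No difference with an unadjusted p below 0.05 in the main limma fit changed direction. Some smaller differences did change sign, among them Psmb9 with MEHP in 7 of 20 settings and B2m with DOS in 5 of 19. The counts of called members for MEHP, BDB and DOS were 0 throughout, and for DOM against DINCH stayed within 1.5 times. For DINCH the count of 1 (Psmb8) became 0 under normexp, without the filter, with detection on 1 array and without the replicate 1 arrays, and 2 with all groups in 1 fit. Leaving out 1 array gave 0 to 2. For DOM the count of 1 (Tap2) became 0 without the filter, and 2 (Tap1 added) with the slide as a block, the replicate block, all groups in 1 fit or a variance trend. Leaving out 1 array gave 1 to 2. Without DOM replicate 2 or DMSO replicate 1 the single call was H2-D1 (-0.67, adjusted p = 0.0178, and -0.61, adjusted p = 0.0300) in place of Tap2, and without the other arrays H2-D1 or Tap1 was added to Tap2. For DOM against DOS the count of 3 became 0 without the filter, and leaving out 1 array gave 2 to 3.

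With the replicate block Psmb8 under DINCH was still called, Tap1 under DOM gave 0.64 (adjusted p = 0.00566) and Tap2 in DOM against DOS gave 0.58, under 1.5-fold (adjusted p = 0.0287), and no other member call changed. For MEHP and DOM against DMSO and for both direct comparisons, same-numbered arrays correlated at -0.14 to 0.45 and were not taken as pairs. Under quantile normalization Psmb10 gave -0.55 against DINCH and -0.57 against DOS, under 1.5-fold. The cause of these changes was not tested. Dim probes such as those of Nlrc5 limit what could be measured, and 3 or 4 arrays a group limit the intervals.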
